A study of Mus musculus with 23 samples.

Results

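The 10 genes described here encode proteins of the cytotoxic granule and other products typical of natural killer (NK) cells and killer T cells. They were chosen by name, as Gzma, Gzmb, Gzmk, Prf1, Nkg7, Ctsw, Ccl5, Klrd1, Eomes and Tbx21, and each had 1 row among the 24475 genes of the expression table. The table covered 23 mouse libraries in 3 groups. Normal thymus of C57BL/6 mice gave 6 libraries, with no agent given and the age of the animals not stated in the sources used here. The other libraries were made from spleen with spontaneous T-cell acute lymphoblastic leukemia (T-ALL), which had arisen after a newborn thymus lobe was placed under the kidney capsule of young adult BALB/c hosts that lacked Rag2 and Il2rg. In 14 of these the graft was wild type, from the CD45.1 congenic line B6.Ly5.1 (WT T-ALL), and in 3 it came from Notch3 knockout donors, in which β-galactosidase had been inserted into the first coding exon (Notch3 KO T-ALL). All 17 tumor-bearing hosts carried both deletions and therefore made no T, B or NK cells of their own, whereas the thymus donors of the control group had an intact immune system. The study calls its exome samples unfractionated spleen cells, on average mostly leukemic, and does not state this for the RNA libraries. Each T-ALL library is taken here to hold leukemic and host cells together. In both comparisons with thymus the group cannot be told apart from the tissue or from the strain of the host. In such bulk samples, fewer cells of a type and less RNA per cell cannot be told apart.

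A killer cell stores granzymes, which are serine proteases, in secretory granules together with perforin, the protein that forms pores and lets granzymes reach the cytosol of a target cell. T-bet (Tbx21) and eomesodermin (Eomes) are T-box transcription factors that drive this program in NK cells and CD8 T cells. Most developing thymocytes do not kill, but small populations of thymus such as NK, NKT, γδ and mature CD8 T cells carry parts of the program. The thymus values are therefore those of a mixture and not a level of 0.

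Values are log2(scaled RPKM + 1), where RPKM is reads scaled by transcript length and mapped reads, brought by the authors to a 75th percentile of about 10 in every library. Between 10154 and 11011 genes reached a scaled RPKM of 1 in each library. Read counts were not analysed here, and the study gives a typical number of reads per sample but no total for each library, so no counting interval could be set on a value. The T-lineage markers Cd3d, Cd3e, Cd3g, Lck, Thy1 and Cd2 summed to a scaled RPKM of 1371 to 3175 in WT T-ALL, 1618 to 2326 in Notch3 KO T-ALL and 2494 to 3044 in thymus. The 5 B cell markers summed to at most 5.80 in any T-ALL library and at least 17.4 in thymus. Notch3 itself was at 3.22, 2.59 and 3.74 in the Notch3 KO T-ALL libraries 1, 2 and 3, at 3.17 to 5.78 in WT T-ALL and at 2.62 to 4.29 in thymus, and since a value over the whole gene also counts reads outside the inserted part and reads of host cells, it does not check the knockout. WT T-ALL 110 stood apart by its neutrophil markers, whose 8 genes summed to 84820, against 17490 in WT T-ALL 108 and 58.0 to 7586 in the remaining libraries. Outside the cytotoxic program the genes Sco2, Srsf4 and Nr2c2ap parted the libraries of every mixed group into 2 sets (Sco2 between 2.30 and 3.92 in set A and between 0.00 and 1.00 in set B). This split was seen after the values were examined and the labels name no batch. Set A held 2 thymus, 4 WT T-ALL and all 3 Notch3 KO T-ALL libraries, and set B held 4 thymus and 10 WT T-ALL libraries.

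Because the 3 granzyme genes of the list were at very different levels, their promoter windows are shown first. Gzma (gene 14938, chr13:113093824-113100981) and Gzmk (gene 14945, chr13:113171630-113180965) lie near each other on the minus strand of chromosome 13, and Gzmb (gene 14939, chr14:56258836-56262334) lies on the minus strand of chromosome 14. The windows run from 250 bases before to 50 bases after the start of the gene, 5′ to 3′ on the gene's own strand, and were taken from RefSeq on GRCm38.p6. Capitals mark matches on either strand to TGTGGT (a RUNX-type motif), GGTGTGA (a T-box type motif), CAGNTG (an E-box type motif), AGGAAG (an ETS-type motif) and TATAAA.
Gzma, chr13:113100932-113101231: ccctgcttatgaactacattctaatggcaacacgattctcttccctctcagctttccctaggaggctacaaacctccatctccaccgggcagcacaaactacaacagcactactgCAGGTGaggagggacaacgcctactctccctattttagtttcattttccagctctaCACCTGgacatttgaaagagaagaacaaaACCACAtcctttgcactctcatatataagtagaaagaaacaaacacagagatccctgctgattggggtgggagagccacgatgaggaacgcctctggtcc
Gzmk, chr13:113180916-113181215: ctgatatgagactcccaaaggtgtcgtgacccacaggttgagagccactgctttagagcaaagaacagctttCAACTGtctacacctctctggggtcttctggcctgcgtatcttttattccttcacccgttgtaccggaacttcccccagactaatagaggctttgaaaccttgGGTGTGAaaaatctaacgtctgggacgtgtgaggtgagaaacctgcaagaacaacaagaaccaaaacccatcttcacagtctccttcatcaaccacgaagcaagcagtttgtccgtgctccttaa
Gzmb, chr14:56262285-56262584: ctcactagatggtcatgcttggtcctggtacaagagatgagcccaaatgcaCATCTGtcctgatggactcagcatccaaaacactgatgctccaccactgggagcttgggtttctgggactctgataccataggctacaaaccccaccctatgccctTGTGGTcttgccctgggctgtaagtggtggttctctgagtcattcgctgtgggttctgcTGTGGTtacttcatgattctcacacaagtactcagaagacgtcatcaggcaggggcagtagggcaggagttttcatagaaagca

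The Gzma window held 1 match to TGTGGT, starting 50 bases before the gene start, and 2 to CAGNTG, at 135 and 79 bases before it. The Gzmk window held 1 match to GGTGTGA, at 75 bases, and 1 to CAGNTG, at 178 bases. The Gzmb window held 2 matches to TGTGGT, at 93 and 34 bases, and 1 to CAGNTG, at 199 bases. No matches overlapped in these windows, and none of the 3 held AGGAAG or TATAAA. Among 32851 promoter windows of the same length, TGTGGT was in 16.8%, GGTGTGA in 3.98%, CAGNTG in 51.4%, AGGAAG in 35.4% and TATAAA in 13.6%. These matches describe the letters only. Of the 10 genes, 7 had a window in the RefSeq table.

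Gzma, which encodes granzyme A, a granzyme with trypsin-like specificity, was the most abundant of the 10 genes in each of the 3 groups and rose in T-ALL. In thymus its level ran from 5.42 to 6.40 with a median of 5.85. In WT T-ALL it ran from 8.54 in tumor 120 to 10.84 in tumor 110, with a median of 9.37. The Notch3 KO T-ALL libraries 1, 2 and 3 were at 9.06, 7.94 and 9.74. Every one of the 17 T-ALL libraries therefore lay above the highest thymus library. The means were 5.91 ± 0.41 (SD, n = 6), 9.53 ± 0.68 (SD, n = 14) and 8.91 ± 0.91 (SD, n = 3), so WT T-ALL exceeded thymus by 3.62 with a 95% interval from 3.01 to 4.24 (limma, adjusted p = 2.03e-09). Notch3 KO T-ALL exceeded thymus by 3.01 with an interval from 2.12 to 3.90 (limma, adjusted p = 1.56e-05). On the linear scale the mean scaled RPKM of Gzma was 61.0 in thymus, 822 in WT T-ALL and 544 in Notch3 KO T-ALL, a ratio of 13.5 and 8.91 to thymus. Ranked by level within a library, Gzma stood between places 80 and 180 of all genes in WT T-ALL and between 140 and 253 in Notch3 KO T-ALL, against 903 to 1843 in thymus. The WT T-ALL difference was 3.78 within set A and 3.54 within set B, and 3.52 to 3.72 when any single library was left out, the lowest being without tumor 110. Markers of blood cells of the spleen were also higher in T-ALL. The 5 erythroid markers in the table summed to a scaled RPKM of 31.6 to 641 in WT T-ALL, 337 to 1790 in Notch3 KO T-ALL and 0.21 to 2.39 in thymus, and the 6 platelet markers to 4.27 to 205, 64.8 to 196 and 0.66 to 1.20. All of these markers passed the filter through T-ALL alone and were called higher in both groups, and their part in the Gzma difference was not tested.

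The genes beside Gzma on chromosome 13 did not show levels of that size. Cdc20b, whose annotated span contains Gzma, stayed at or below 1.20 in every library. Gpx8 was at or below 0.20 in thymus and reached 3.25 in 1 WT T-ALL library. Esm1, on the far side of Gzmk, had a mean of 0.80 in thymus, 3.21 in WT T-ALL and 2.57 in Notch3 KO T-ALL. The library kit kept strand, but whether counting used it is not given in the sources used here.

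**Figure D1:**
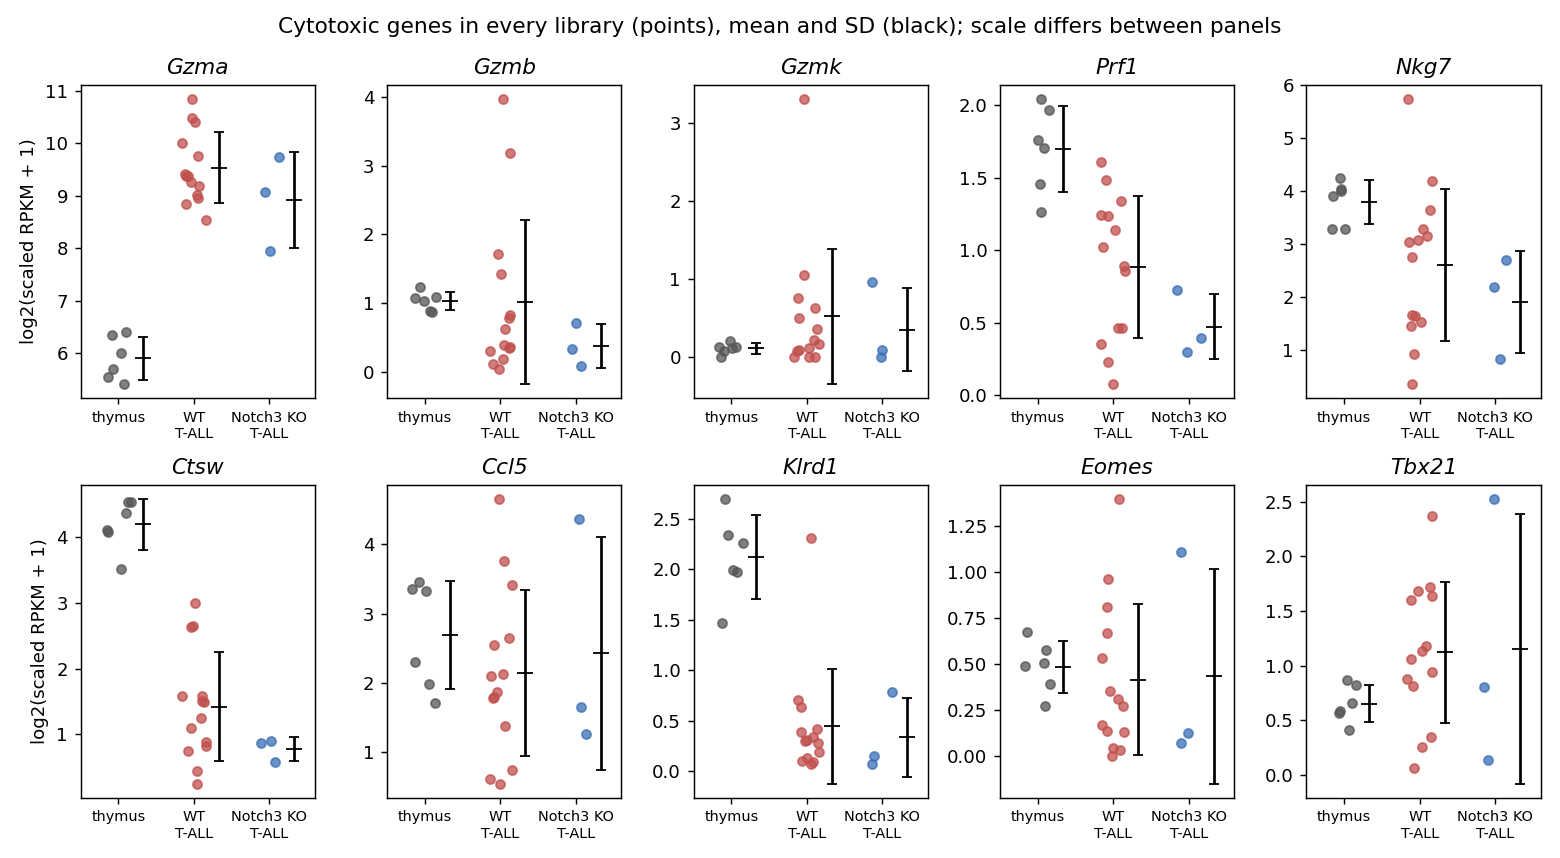
Level of each of the 10 genes as log2(scaled RPKM + 1) on the vertical axis, with 1 point per library in thymus, WT T-ALL and Notch3 KO T-ALL and the mean with SD in black. Gzma separated all 17 T-ALL libraries from thymus, and Ctsw lay lower in all 17.

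Gzmb encodes granzyme B, the caspase-like granzyme of activated killer cells. Its thymus values lay between 0.87 and 1.23. The WT T-ALL libraries spread from 0.04 to 3.97 with a median of 0.51, and the Notch3 KO T-ALL libraries were at 0.71, 0.08 and 0.34. Tumors 110 (3.97), 5 (3.19), 48 (1.72) and 108 (1.43) lay above every thymus library and the other 10 WT T-ALL libraries lay below every one of them. The mean difference between WT T-ALL and thymus was accordingly -0.01 with an interval from -0.92 to 0.90 (limma, adjusted p = 0.987), while the SD was 1.19 in WT T-ALL against 0.14 in thymus. Gzmb in Notch3 KO T-ALL was lower than thymus by 0.65 on the mean, with an interval of the difference from -1.98 to 0.67 (limma, adjusted p = 0.436), although the libraries of the groups did not overlap.

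Gzmk encodes granzyme K, like granzyme A a trypsin-like protease. It was at or below 0.20 in all 6 thymus libraries. Among WT T-ALL it was at 0.00 in 3 libraries, had a median of 0.19 and reached 3.31 in tumor 5, which stood above the next, tumor 48, at 1.04. The Notch3 KO T-ALL libraries were at 0.96, 0.00 and 0.08. Gzmk did not pass the filter on low values, and the exact permutation test (two-sided, not adjusted) gave p = 0.287 for WT T-ALL against thymus, 0.321 for Notch3 KO T-ALL against thymus and 0.696 between the T-ALL groups. The high level of Gzma was thus not shared by its neighbour and paralog.

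Prf1 (gene 18646, chr10:61297751-61304684) encodes perforin and fell in both T-ALL groups. Its thymus libraries ran from 1.27 to 2.04 with a mean of 1.70 ± 0.30 (SD, n = 6). WT T-ALL ran from 0.08 in tumor 3 to 1.61 in tumor 126, with a mean of 0.89 ± 0.49 (SD, n = 14), and 11 of 14 libraries lay below every thymus library. The Notch3 KO T-ALL libraries were at 0.72, 0.40 and 0.29, all below thymus. Prf1 fell by 0.82 on the log2 scale in WT T-ALL (SE 0.21, limma, adjusted p = 0.00258). In Notch3 KO T-ALL it fell by 1.23 (SE 0.30, limma, adjusted p = 0.00300). All these levels are low, and with an offset of 0.1 in place of 1 the differences were -1.50 and -2.32. Within set A the WT T-ALL difference was -0.64 with an adjusted p of 0.325, over a range of 0.000475 to 0.325 among its alternatives, and within set B it was -0.92 with an adjusted p of 0.00703 (limma).

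Set against each other, the group means of Gzma and Prf1 moved in opposite directions from thymus to T-ALL. Over the 14 WT T-ALL libraries their correlation was positive (r = 0.51, rho = 0.53) and did not pass after adjustment. The ratio of their scaled RPKM, which is per length for both genes, was 282 to 8321 in WT T-ALL, 776 to 3763 in Notch3 KO T-ALL and 20.3 to 35.9 in thymus. The ratio of 8321 came from tumor 3, whose Prf1 scaled RPKM was 0.055, so the highest ratios rest on Prf1 values near 0. The share of Gzma in the summed scaled RPKM of the 10 genes was 92.4% to 99.6% in WT T-ALL, 94.2% to 98.9% in Notch3 KO T-ALL and 45.9% to 68.7% in thymus. The other 9 genes together summed to 4.13 to 89.8 in WT T-ALL, 4.02 to 32.9 in Notch3 KO T-ALL and 28.7 to 59.9 in thymus.

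**Figure D2:**
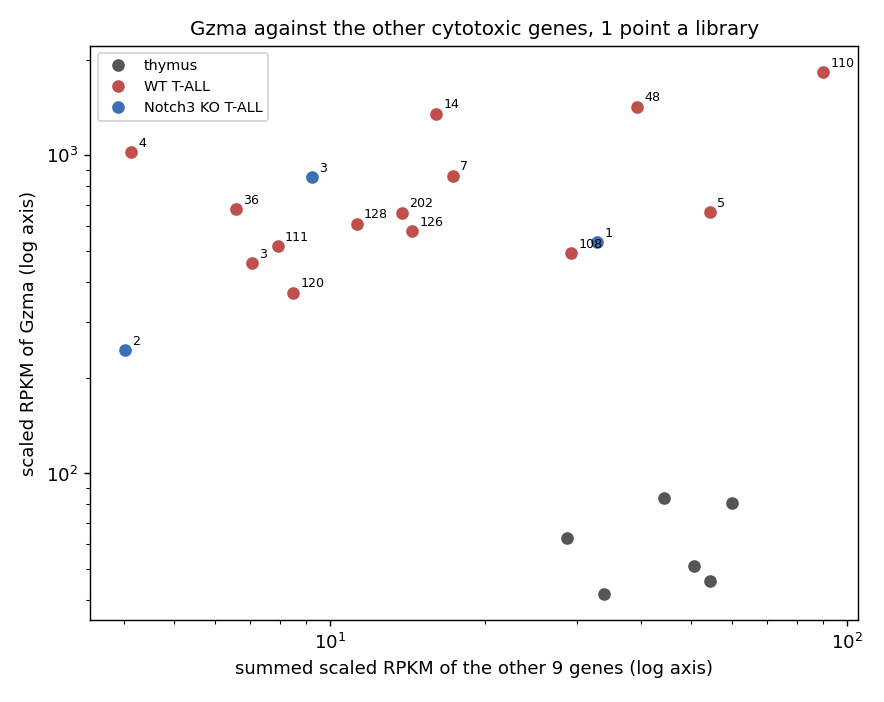
Scaled RPKM of Gzma (vertical, log axis) against the summed scaled RPKM of the other 9 genes (horizontal, log axis), 1 point per library with T-ALL libraries numbered. All T-ALL points lie above the thymus points, whereas on the horizontal axis they run from 4.02 to 89.8 on both sides of thymus.

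Nkg7 (gene 72310, chr7:43437138-43438246) encodes a membrane protein of cytotoxic granules. It was at 3.28 to 4.25 in thymus, at 0.37 (tumor 4) to 5.74 (tumor 110) in WT T-ALL, with a median of 2.90, and at 2.20, 0.84 and 2.71 in Notch3 KO T-ALL. In WT T-ALL 10 of 14 libraries lay below every thymus library and tumor 110 lay above every one. The difference to thymus was -1.19 in WT T-ALL (interval -2.33 to -0.05, limma, adjusted p = 0.0739) and -1.88 in Notch3 KO T-ALL (interval -3.53 to -0.23, limma, adjusted p = 0.0663), and neither passed the threshold of 0.05. The first of these turned on single libraries. Without tumor 110 the difference was -1.43 with an adjusted p of 0.0119, and without tumor 108, the next highest at 4.20, it was -1.31 with an adjusted p of 0.0486 (limma, 0.0119 to 0.192 over all alternatives). The second passed with the 2 groups fitted alone (limma, adjusted p = 0.00154), over a range of 0.00154 to 0.284 among its alternatives.

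Ctsw (gene 13041, chr19:5465043-5468628) encodes cathepsin W, a cysteine protease of the papain family found in NK cells and CD8 T cells. It showed the largest fall of the 10 genes in both comparisons with thymus. Thymus libraries ran from 3.51 to 4.53, WT T-ALL from 0.25 in tumor 4 to 2.99 in tumor 48 with a median of 1.37, and the Notch3 KO T-ALL libraries were at 0.90, 0.58 and 0.87. No T-ALL library reached the lowest thymus library. Ctsw fell by 2.77 on the log2 scale in WT T-ALL (SE 0.32, limma, adjusted p = 3.70e-07), which was a mean scaled RPKM of 2.17 against 17.8. In Notch3 KO T-ALL it fell by 3.41 (SE 0.47, limma, adjusted p = 8.83e-06). The fall in WT T-ALL was -2.61 within set A and -2.87 within set B.

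Klrd1 (gene 16643, chr6:129588092-129598775) encodes CD94, which pairs with NKG2 proteins to form receptors for a nonclassical MHC class I molecule. It was at 1.47 to 2.70 in thymus. In WT T-ALL it ran from 0.07 to 2.31 with a median of 0.30, and tumor 48 (2.31) was the only library of that group above 1. The Notch3 KO T-ALL libraries were at 0.79, 0.07 and 0.15. Klrd1 fell by 1.68 on the log2 scale in WT T-ALL (SE 0.25, limma, adjusted p = 8.02e-06), with 13 of 14 libraries below every thymus library. In Notch3 KO T-ALL it fell by 1.79 (SE 0.36, limma, adjusted p = 0.000479). Klrd1 passed the filter through the thymus libraries, so a gene of this kind had to be lower in T-ALL, and with an offset of 0.1 the differences were -3.21 and -3.54.

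Ccl5 (gene 20304, chr11:83525778-83530518) encodes the chemokine RANTES, which memory CD8 T cells and NK cells hold ready for release. Its thymus values ran from 1.70 to 3.46. In WT T-ALL they ran from 0.54 in tumor 128 to 4.66 in tumor 5 with a median of 1.98, and the Notch3 KO T-ALL libraries were at 4.36, 1.65 and 1.26. The groups overlapped throughout. The difference to thymus was -0.55 in WT T-ALL (interval -1.65 to 0.56, limma, adjusted p = 0.400) and -0.26 in Notch3 KO T-ALL (interval -1.87 to 1.34, limma, adjusted p = 0.811). Within set A these differences were 0.88 and 0.58, so their sign turned with the libraries used.

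Tbx21 (gene 57765, chr11:97098007-97115331) was at 0.41 to 0.87 in thymus, at 0.07 to 2.37 in WT T-ALL with a median of 1.10, and at 2.53, 0.13 and 0.81 in Notch3 KO T-ALL. In WT T-ALL 10 of 14 libraries lay above every thymus library and 3 lay below, and the mean difference of 0.47 did not pass (interval -0.16 to 1.10, limma, adjusted p = 0.200). For Notch3 KO T-ALL the difference was 0.50 (interval -0.41 to 1.41, limma, adjusted p = 0.384), and without the Notch3 KO T-ALL library 1 it was -0.18. Tbx21 reached a scaled RPKM of 1 in 8 WT T-ALL, 1 Notch3 KO T-ALL and 0 thymus libraries, so it passed the filter through T-ALL, which favours a positive difference. Eomes (gene 13813, chr9:118478186-118486132) was at or below 0.67 in thymus and at or below 1.40 in T-ALL, with the highest values in tumor 5 (1.40) and the Notch3 KO T-ALL library 1 (1.11). It did not pass the filter, and its exact permutation p (two-sided, not adjusted) was 0.706 for WT T-ALL and 0.857 for Notch3 KO T-ALL against thymus. Eomes transcripts were thus near the bottom of the scale in all 3 groups.

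Counted together, 8 of the 10 genes passed the filter in both comparisons with thymus. In WT T-ALL 1 of them rose and 3 fell, where 29.3% of all 11919 genes tested rose and 22.3% fell. The same number rose and fell in Notch3 KO T-ALL, where 21.2% of the genes tested rose and 16.3% fell, and in both comparisons these were Gzma, Ctsw, Klrd1 and Prf1. Klrd1 reached a scaled RPKM of 1 in 6 thymus, 1 WT T-ALL and 0 Notch3 KO T-ALL libraries, so the filter fixed its direction and its call adds nothing to this count, and Tbx21 passed through T-ALL alone. These counts and the medians are descriptions only. The median difference of the 8 genes was -0.68 in WT T-ALL and -0.94 in Notch3 KO T-ALL, against 0.08 for all genes in each. The libraries of WT T-ALL and thymus did not overlap for Gzma, which was higher, as for 8.42% of all genes, and for Ctsw, which was lower, as for 6.64%. For Notch3 KO T-ALL and thymus they did not overlap for Gzma, as for 23.9% of all genes, or for 5 lower genes (Gzmb, Prf1, Nkg7, Ctsw and Klrd1), as for 18.4%. Both comparisons share the 6 thymus libraries.

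**Figure D3:**
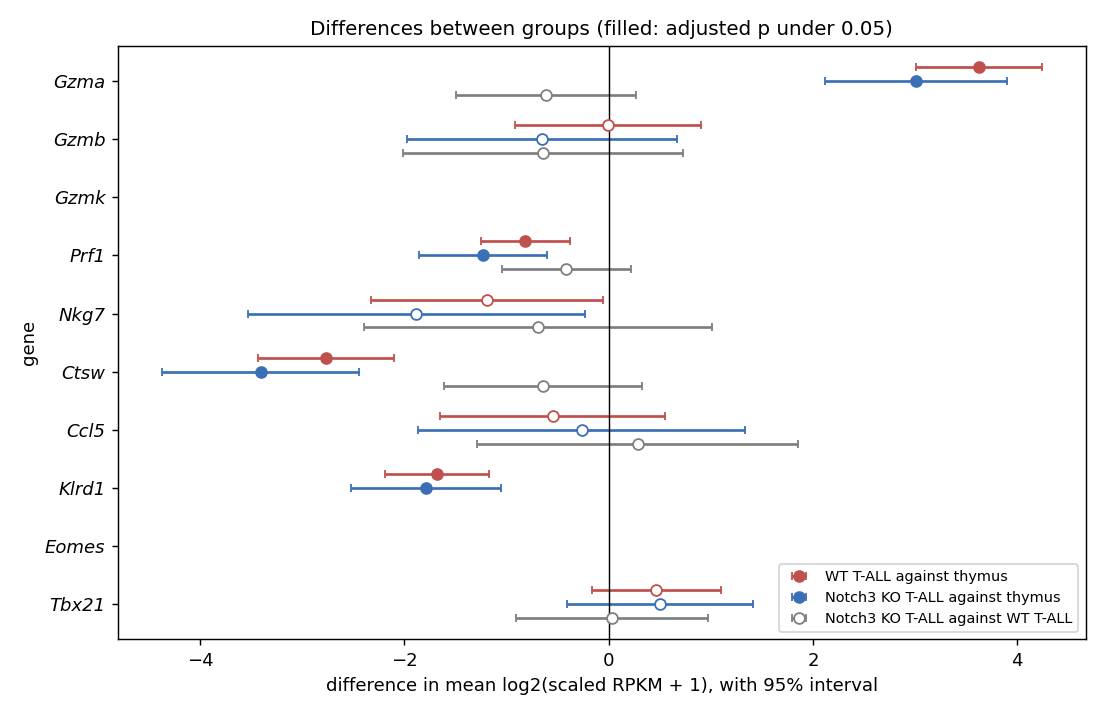
Difference in mean log2(scaled RPKM + 1) on the horizontal axis with its 95% interval (limma) for each gene tested, in WT T-ALL against thymus, Notch3 KO T-ALL against thymus, and Notch3 KO against WT T-ALL. Filled points passed an adjusted p of 0.05, which Gzma, Prf1, Ctsw and Klrd1 did against thymus, and Gzmk and Eomes have no point because they did not pass the filter.

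The loss of Notch3 in the donor thymus was addressed by setting the T-ALL groups against each other. Of the 7 genes tested, 0 passed in limma, where 0.617% of all 11677 genes did, and 0 passed without adjustment. Exact permutation tests of the 10 genes, without adjustment, also gave 0 under 0.05, the smallest p being 0.184. The differences, Notch3 KO minus WT T-ALL, were -0.61 for Gzma (interval -1.49 to 0.26), -0.64 for Gzmb (-2.02 to 0.73) and -0.41 for Prf1 (-1.05 to 0.22). They were -0.69 for Nkg7 (-2.39 to 1.01), -0.64 for Ctsw (-1.61 to 0.32), 0.28 for Ccl5 (-1.29 to 1.86) and 0.03 for Tbx21 (-0.90 to 0.97). With 3 Notch3 KO libraries, which all fell in set A, these intervals reach beyond a difference of 1 in 6 of the 7 genes. With library set as a term the sign turned for Nkg7 (0.28) and Ccl5 (-0.30). The Gzma difference was -0.13 without the Notch3 KO library 2 and -1.03 without library 3, and that of Nkg7 was -0.16 and -1.09, or -0.45 without tumor 110. Markers of other cells lay on both sides, with a median difference of 2.21 for the erythroid, 1.85 for the platelet and 1.30 for the macrophage markers, and of -0.78 for the neutrophil, -0.55 for the basophil and mast cell, -0.67 for the mature naive T cell and -0.47 for the B cell markers. Of these only the platelet gene Treml1 passed (limma, adjusted p = 0.0180), and their part in the differences of the 10 genes was not tested. The Notch3 KO libraries also differed among themselves. Library 1 was the highest of the 3 for 8 of the 10 genes, library 2 was the lowest for 7, and library 3 led for Gzma and Nkg7. Without library 1 the Ccl5 difference was -0.68 and that of Tbx21 was -0.65.

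Tumor by tumor, the WT T-ALL libraries differed in which of the low genes they held. Tumor 110 was the highest for Gzma, Gzmb and Nkg7 and had 7 of the 10 genes above every thymus library. Tumor 5 was the highest for Gzmk, Ccl5 and Eomes and had 6 genes above thymus, while its Nkg7, Ctsw and Klrd1 lay below every thymus library. Tumor 48 was the highest for Ctsw and Klrd1, tumor 120 for Tbx21 and tumor 126 for Prf1. At the other end, tumor 4 was the lowest for Nkg7, Ctsw and Tbx21 and was at 0 for Gzmk, yet its Gzma scaled RPKM was 1023. Tumors 4, 36 and 128 each had 7 genes below every thymus library. In tumors 4, 14 and 128 Gzma was the only one of the 10 genes above every thymus library. These counts are descriptions, since the share of all genes outside the thymus range was not computed for single libraries. Some rest on values near 0, as for Eomes in tumor 36, at 0.03 against 0.27 in the lowest thymus library. Tumor 110 also had the most neutrophil marker signal (summed scaled RPKM 84820, from a list of which 8 of 8 rose in WT T-ALL against thymus, Elane having passed the filter through T-ALL alone) and the most basophil and mast cell marker signal (209, where the WT T-ALL median was 10.1), and the part of these cells in its values was not tested. Tumor 5 had the least neutrophil marker signal of the WT T-ALL libraries (641) and tumor 4 the least basophil and mast cell marker signal (2.64).

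**Figure D4:**
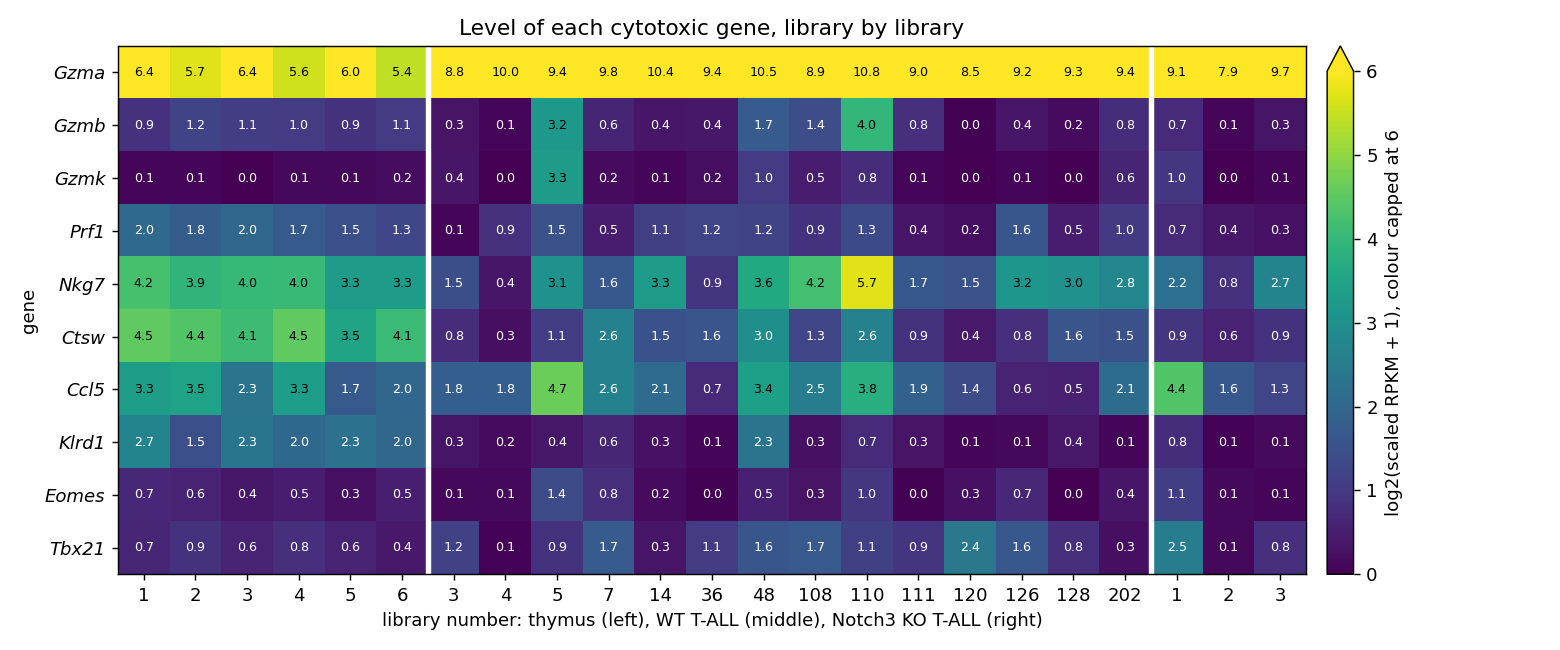
Level of each gene (rows) in each library (columns, by library number) as log2(scaled RPKM + 1), with the value printed in each cell and the colour capped at 6. Gzma was above 7.9 in all T-ALL columns, while high values of the other 9 genes were scattered over single tumors such as 5, 48 and 110.

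Over the 14 WT T-ALL libraries 41 of the 45 pairs of these genes had a positive Pearson correlation. After adjustment over the 45 pairs 7 passed by Pearson's r, 4 by Spearman's rho and 3 by both (permutation tests, 100000 resamples). Ccl5 was in all 3 of the last. It correlated with Gzmb (r = 0.84, adjusted p = 0.00315, rho = 0.80, adjusted p = 0.0180, permutation tests), with Gzmk (r = 0.79, adjusted p = 0.00315, rho = 0.79, adjusted p = 0.0180, permutation tests) and with Eomes (r = 0.76, adjusted p = 0.0198, rho = 0.73, adjusted p = 0.0474, permutation tests). Tumor 5 was high in all 4 of these genes. Without the 2 libraries farthest from the median of the first gene, r was 0.75 for Gzmb and Ccl5, 0.69 for Gzmk and Ccl5 and 0.40 for Ccl5 and Eomes, and 0 of the 45 pairs passed after adjustment. Within the 10 WT T-ALL libraries of set B, r was 0.83, 0.84 and 0.58 for these pairs, and set A held too few for a value. The relation of Ccl5 and Eomes was thus the one of the 3 whose r fell most without single tumors. Gzmb and Gzmk had the highest rho of all pairs (0.845, adjusted p = 0.0139, permutation test) but did not pass by r (0.714). Their r was 0.844 without the 2 farthest libraries (adjusted p = 0.0999, permutation test).

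The genes most like a member over these 14 libraries are given as a description, picked as the highest r among all genes past the filter. Nkg7 was followed most closely by Cst7, which encodes cystatin F, an inhibitor of cysteine proteases in cytotoxic granules and myeloid cells (r = 0.97), then by Serpina3g (0.93) and Arsb (0.93), and all 3 were highest in tumor 110. Gzmb was followed by H2-Q8 (0.94) and Oasl2 (0.92). Ccl5 was followed by Rtp4 (0.87), H2-Q5 (0.87) and H2-Q8 (0.86). Gzma was followed by Tmem165 (0.84), Vimp (0.83) and Gmfg (0.82), each highest in tumor 110 as Gzma was. For Gzmk they were Crmp1 (0.95), Sytl2 (0.93) and Hist1h2ap (0.93), all highest in tumor 5. For Klrd1 they were Mgam (0.94), Pcsk1 (0.94) and the pancreatic protease gene Ctrc (0.93), all highest in tumor 48. Ctsw was followed by Ypel3 (0.89), Birc3 (0.87) and Maml2 (0.87), and Tbx21 by Tor3a (0.80), Casp9 (0.78) and Pwwp2b (0.78). With 1 library far above the rest, as for Gzmk and Klrd1, a high r says little beyond which library that was.

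The rest of the NK receptor repertoire was examined because Gzma is also a product of NK cells. Of 9 NK cell markers, 5 (Ncr1, Klre1, Klra4, Klra8 and Klrc2) were at 0 in every Notch3 KO T-ALL library, and Klra4 was at 0 in every WT T-ALL library too. Ncr1, the gene of the activating receptor NKp46, reached at most 0.08 in WT T-ALL and 0.27 in thymus. S1pr5 went the other way, with means of 0.029 in thymus, 0.315 in WT T-ALL and 0.475 in Notch3 KO T-ALL. It reached 1.03 in tumor 7, where Klra8 was at 0.84, and 0.98 in the Notch3 KO T-ALL library 1. The 9 markers summed to a scaled RPKM of 0.18 to 1.94 in WT T-ALL, 0.22 to 1.03 in Notch3 KO T-ALL and 1.92 to 4.50 in thymus, and only tumor 7 of all T-ALL libraries, at 1.94, reached the lowest thymus sum. Klrb1c, which encodes NK1.1, was the only one of the 9 to pass the filter. It did so through 3 thymus libraries alone, with at most 0.58 in any T-ALL library and up to 1.48 in thymus, so its direction was fixed by the filter and its difference of -0.87 in WT T-ALL is given as a description.

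The list of NK receptors had 29 genes with a row, and 6 of them were tested, of which Cd160 rose and Cd226 fell in both comparisons with thymus, and Klrb1c was lower through the filter as given above. Cd160, whose product binds HVEM and MHC class I, rose by 1.86 in WT T-ALL (SE 0.36, limma, adjusted p = 0.000166) and by 1.50 in Notch3 KO T-ALL (SE 0.52, limma, adjusted p = 0.0257). Cd226, which encodes the adhesion receptor DNAM-1, fell by 1.70 in WT T-ALL (limma, adjusted p = 0.000306). Klrk1, which encodes NKG2D, was under the filter with a median of 0.81 in thymus, 0.31 in WT T-ALL and 0.40 in Notch3 KO T-ALL. Reads of the Klra and Klrc families, and of the granzyme genes beside Gzmb, could be split between near-identical copies, so their single values are uncertain. All 4 adaptor genes changed in both comparisons. The shares of all genes tested, against which these list counts are to be read, were 29.3% higher and 22.3% lower in WT T-ALL and 21.2% and 16.3% in Notch3 KO T-ALL. Hcst and Cd247 fell (by 1.04 and 1.53 on the log2 scale in WT T-ALL), and Tyrobp and Fcer1g, which myeloid cells use as well, rose by 1.69 and 1.40 and were highest in tumor 110. The 9 macrophage markers, 8 of which rose in WT T-ALL and 9 in Notch3 KO T-ALL (Cd5l and Marco having passed the filter through T-ALL alone), moved with them, with sums of 25.5 to 404 in WT T-ALL, 301 to 429 in Notch3 KO T-ALL and 9.34 to 62.1 in thymus, and their part in the result was not tested.

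**Figure D5:**
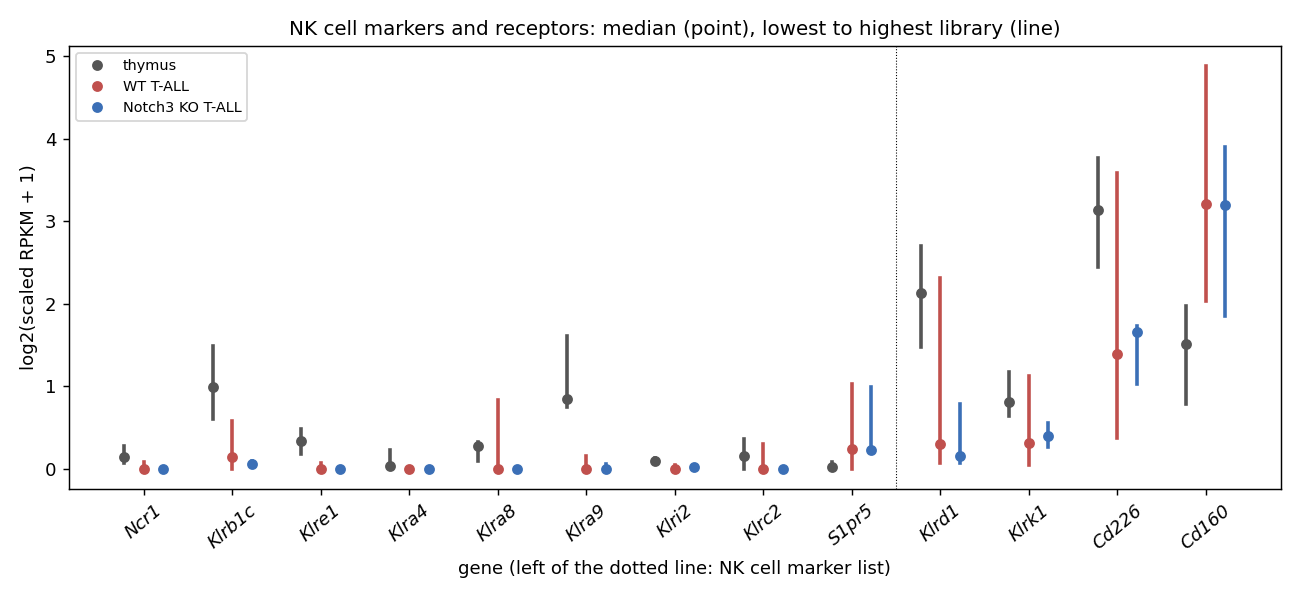
Level of the 9 NK cell markers (left of the dotted line) and of Klrd1, Klrk1, Cd226 and Cd160 as log2(scaled RPKM + 1) on the vertical axis, with the median as a point and the lowest to highest library as a line for each group. Cd160 alone of the 4 receptors on the right had a higher median in T-ALL than in thymus.

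Other genes of the pathway were read as lists, beside the same shares of 29.3% and 22.3% in WT T-ALL and 21.2% and 16.3% in Notch3 KO T-ALL. Lists this small that give shares near these say nothing particular about their genes, which holds for the granule packing, regulator and receptor lists. None of the 6 other granzyme genes (Gzmc, Gzmd, Gzme, Gzmf, Gzmg and Gzmm) passed the filter, and all stayed under 1 in every library. Of 13 genes for packing and release of granules 3 rose, 3 fell and 7 did not pass in WT T-ALL, with a median difference of 0.26, and 1 rose and 2 fell in Notch3 KO T-ALL, with a median of -0.03. Calr, a chaperone that also sits in granules, rose by 0.71 in WT T-ALL and 0.97 in Notch3 KO T-ALL (limma, adjusted p = 0.000481 and 0.00149). Lyst and Stx7, genes of lysosome and granule trafficking, fell in both, by 1.16 and 1.63 on the log2 scale in WT T-ALL. Rab27a and Lamp2 rose in WT T-ALL and Unc13d, which primes granules for fusion, fell by 0.45. Srgn, the proteoglycan that packs granzymes, had means of 6.44 in thymus and 6.81 in WT T-ALL, and Ctsc, the protease that activates granzymes, had means of 4.56 and 4.51, and neither passed. Of the granzyme inhibitors 3 were tested, and only Serpinb6b rose in WT T-ALL, by 0.90 (limma, adjusted p = 0.0456), while 0 of 3 passed in Notch3 KO T-ALL. Serpinb9, the inhibitor of granzyme B, had means of 2.01 in thymus, 2.02 in WT T-ALL and 1.89 in Notch3 KO T-ALL.

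Of 9 death ligands and cytokines 6 were tested and 2 fell in both comparisons, Lta by 0.88 and the chemokine gene Xcl1 by 1.35 on the log2 scale in WT T-ALL. Fasl was under the filter, with a median of 0.58 in thymus, 0.10 in WT T-ALL and 0.04 in Notch3 KO T-ALL, and Ifng had a median of at most 0.15 in any group. Of 15 regulators of cytotoxic lineages tested, 4 rose (Nfil3, Ikzf2, Irf8 and Zeb2, the last of which passed the filter through T-ALL libraries alone) and 4 fell (Stat4, Tox, Bcl11b and Tcf7) in WT T-ALL, with a median of 0.31, and 3 rose and 4 fell in Notch3 KO T-ALL, with a median of 0.07. Nfil3, which NK cell development needs, rose by 1.30 in WT T-ALL (limma, adjusted p = 0.000658), and Stat4, which relays the interleukin-12 signal, fell by 1.87 (limma, adjusted p = 0.000123). Runx3, which activates cytotoxic genes in CD8 T cells, had means of 3.06 in thymus, 3.07 in WT T-ALL and 2.53 in Notch3 KO T-ALL and did not pass. Of 11 cytokine and chemokine receptors tested 2 rose and 3 fell in WT T-ALL, with a median of 0.10, and 1 rose and 3 fell in Notch3 KO T-ALL, with a median of -0.03. Il12rb2, a chain of the interleukin-12 receptor, rose by 2.15 in WT T-ALL and by 1.75 in Notch3 KO T-ALL (limma, adjusted p = 2.08e-06 and 0.00193). Il21r, Cxcr6 and Il18r1 fell, by 2.10, 1.46 and 0.78 on the log2 scale in WT T-ALL. In the comparison of Notch3 KO with WT T-ALL 0 of the 57 other pathway genes tested passed in limma, and 1 had an unadjusted p under 0.05.

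Markers of the T cells that can carry cytotoxic genes were read in the same way. Of 6 memory CD8 T cell markers 2, Cd8a and Cd8b1, which double-positive thymocytes express as well, fell in both comparisons and 4 did not pass, with a median difference of -0.03 in WT T-ALL. Cd8a and Cd8b1 had means of 9.25 and 9.63 in thymus, and the 6 summed to a scaled RPKM of 69.2 to 428 in WT T-ALL, 101 to 494 in Notch3 KO T-ALL and 1211 to 1772 in thymus. Of the γδ and NKT cell markers in the table, which count Cd160 again, 2 of 3 tested, Cd160 and Sox13, rose in both, and the 5 summed to 9.61 to 48.5 in WT T-ALL, 8.60 to 28.2 in Notch3 KO T-ALL and 3.65 to 9.32 in thymus. Zbtb16, which encodes the NKT cell factor PLZF, and Il23r were under the filter and lay lower in WT T-ALL, with means of 0.22 and 0.01, than in thymus, with means of 0.62 and 0.19. All 8 double-positive thymocyte markers fell in both comparisons, with sums of 198 to 1180 in WT T-ALL, 369 to 1424 in Notch3 KO T-ALL and 3704 to 5265 in thymus. The part of these cell types in the values of the 10 genes was not tested.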

How the data were processed

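RNA from 6 thymus, 14 WT T-ALL and 3 Notch3 KO T-ALL samples was sequenced as stranded mRNA libraries, and the authors mapped reads to the mm10 transcriptome with OSA in ArrayStudio. The deposited values are log2 of scaled RPKM with an offset of 1, as read from the values (75th percentile of scaled RPKM 9.99 or just above), so differences understate the fold change of low genes. No columns held identical values. The study describes T-ALL cases and control thymus values as those of individual mice. Genes that reached a scaled RPKM of 1 in 3 or more fitted libraries were tested with limma 3.58.1 in R 4.3.3 (trend, robust, Benjamini-Hochberg over all genes, threshold 0.05). Thymus comparisons used all 3 groups in 1 fit, and Notch3 KO against WT T-ALL used the T-ALL groups alone. Members under the filter were tested by exact permutation (smallest p 2.58e-05, 0.0119 and 0.00147). Correlations, exact tests and promoter searches used Python 3.11.15 with numpy 2.4.6 and pandas 2.3.3. All members were named, and with a range of at least 2 over WT T-ALL also the 3 genes most like each, of which 1 is not reported here. Members and lists were chosen with earlier results of these data known. Fits were tested on simulated data. Alternatives were another offset, filters, quantile normalization, other fits, left-out libraries, a replicate block and, added after seeing the data, the library sets. Positions and promoters came from RefSeq on GRCm38.p6, the build of mm10.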

Additional observations from a re-analysis of the deposited data

Results flagged for a closer look

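Each of the 10 genes was looked at for a thymus library far from the other 5 (Dixon's test, 95% level), and 0 were found. The T-ALL groups, with 14 and 3 libraries, were not tested in this way.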

How the results depend on the processing

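Gzma and Ctsw kept their direction and passed in both comparisons with thymus under every alternative that gave a value, and Prf1 did so in Notch3 KO T-ALL. Klrd1 did too, but it passed the filter through thymus, which fixed its direction. Over all members and alternatives, 611 values kept direction and call, 8 gained a call, 2 lost it and 47 turned sign, all of the last between differences that had not passed. Prf1 in WT T-ALL lost its call within set A and with the replicate block (-0.93, adjusted p = 0.0720). Nkg7 in WT T-ALL also passed with library set as a term (adjusted p = 0.0427). In Notch3 KO T-ALL against thymus, Gzmb passed with the 2 groups alone (limma, adjusted p = 0.00971, range 0.00971 to 0.622), and Eomes reached p = 0.0357 without library 1 (exact permutation).

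A filter at 5 left 2 members called in each comparison with thymus. Within set A, 2 members were called in WT T-ALL and 1 in Notch3 KO T-ALL, where fewer members passed the filter. For WT T-ALL against thymus, all genes called numbered 2926 with the replicate block and 1555 within set A. For Notch3 KO T-ALL against thymus they numbered 2859 to 4292 when a library was left out. For Notch3 KO against WT T-ALL, 39 genes passed with an offset of 0.1, 134 with no filter, 6 with a filter at 5, 254 with all 3 groups, 159 with library set as a term, 13 within set A and 3 to 205 when a library was left out. Without the 2 farthest samples 0 pairs of members passed.

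The replicate numbers did not pair the samples, since same-numbered Notch3 KO T-ALL and thymus libraries correlated in their deviations by 0.04, -0.03 and 0.15. With the replicate block the WT T-ALL difference was 0.15 for Gzmb and 0.32 for Ccl5, and Nkg7 passed in WT T-ALL (-2.33) and Notch3 KO T-ALL (-2.01). Within set A the difference to thymus was 0.88 for Ccl5 and 0.23 for Eomes in WT T-ALL, and 0.58 and 0.046 in Notch3 KO T-ALL. Between the T-ALL groups Nkg7 was at 0.28 and Ccl5 at -0.30 both with library set as a term and within set A. Eomes was at -0.057 with an offset of 0.1 and -0.18 within set A, and Tbx21 at -0.22 with that offset and -0.026 with quantile normalization. When a library was left out, Gzmb ranged from -0.24 to 0.065 in WT T-ALL against thymus. In Notch3 KO T-ALL against thymus the ranges were -0.067 to 0.41 for Gzmk, -1.23 to 0.32 for Ccl5, -0.39 to 0.13 for Eomes and -0.18 to 1.01 for Tbx21. Between the T-ALL groups they were -0.48 to 0.044 for Gzmk, -0.68 to 0.86 for Ccl5, -0.34 to 0.030 for Klrd1, -0.32 to 0.20 for Eomes and -0.65 to 0.55 for Tbx21. The cause of these changes was not tested. Members near 0 cannot be told from absent ones, since no read counts were used.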
